A study of Mus musculus with 12 samples.

Results

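The genes described here are 10 genes of fatty acid uptake and lipoprotein lipolysis, *Lpl*, *Gpihbp1*, *Vldlr*, *Cd36*, *Slc27a1*, *Slc27a3*, *Slc27a4*, *Acsl3*, *Acsl4* and *Acsl5*. They are found by symbol among the 19308 genes of the series, a rule that uses no measured value, and all 10 passed the filter on low counts that left 14094 genes for testing. RNA was sequenced from 12 C57BL/6 mouse hearts in 4 groups of 3: WT sham, F3-KO sham, WT TAC and F3-KO TAC. F3-KO mice carry a global knockout, made with CRISPR-Cas9, of *Fabp3*, which codes for the cytosolic fatty acid binding protein of heart and muscle. An effect therefore cannot be placed in cardiomyocytes alone. Transverse aortic constriction (TAC) narrows the aortic arch and makes the left ventricle pump against a raised pressure. Surgery was done at 8 weeks of age, and hearts were taken 1 week later. The series describes the replicates as independent biological ones.

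The heart burns mostly fatty acids, which reach it bound to albumin or as triglyceride in lipoproteins. Lipoprotein lipase, made largely by cardiomyocytes, is carried across the capillary wall by GPIHBP1 and frees fatty acids at the luminal side, and the VLDL receptor binds the triglyceride-rich particles. CD36 and the fatty acid transport proteins of the SLC27 family promote entry, and long-chain acyl-CoA synthetases trap the fatty acid as its CoA ester. In bulk tissue, fewer cells of a type and less RNA per cell cannot be told apart.

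Libraries held 10424334 to 14372011 estimated counts (median 11891665). *Fabp3* itself was lower in every F3-KO heart, at 1002 to 1143 CPM (counts scaled to library size with TMM factors), against 2117 to 3064 CPM in WT hearts. RNA counted to the gene thus remained (fold 0.432 after sham and 0.357 after TAC). For the protein, the study reports by western blot that it was abolished in the heart. Marker sums, in CPM of the library total, showed cardiac tissue in all 12 hearts, with all 8 cardiomyocyte markers detected and a sum of 57250 to 94870 CPM. White adipocyte markers came to 0.0867 to 1.81 CPM, and *Adipoq* was at 0 in 6 hearts and reached 0.412 CPM at most. Hepatocyte markers summed to 105 and 151 CPM in F3-KO TAC replicates 2 and 3. They came to 1.98 CPM in replicate 1 of that group and 3.01 to 15.2 CPM in the other groups. Their source and their part in the comparisons were not tested. The F3-KO TAC hearts were uneven, and replicate 3 differed from replicates 1 and 2 by a chi-square of 78.7 and 79 for each degree of freedom, the highest of all pairs within groups. Fibroblast markers (7 of 7 detected in each heart) summed to 3825 and 6559 CPM in replicates 1 and 2 but 1413 CPM in replicate 3, against 1285 to 2953 CPM in WT TAC hearts and 662 to 1512 CPM in sham hearts of either genotype. Without F3-KO TAC replicate 3, the edgeR comparison of TAC with sham in F3-KO hearts called 778 of 14340 genes, against 0 of 14094 with it.

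None of the 10 genes passed an adjusted p under 0.05 in any of 7 comparisons by edgeR's quasi-likelihood test, which compared F3-KO with WT after TAC, after sham and over both operations, TAC with sham in WT, in F3-KO and over both genotypes, and the genotype effect after TAC with that after sham (the interaction). These comparisons share hearts. The share of all tested genes called was 0.0780% for genotype after TAC, 0.106% for genotype after sham, 0.412% for genotype over both operations, 0.0780% for surgery over both genotypes and 0% for the other 3. At an unadjusted p under 0.05, *Slc27a1* was lower and *Acsl5* higher both by genotype after TAC (1 lower and 1 higher of 10, beside 4.16% and 5.84% of all genes) and by surgery in F3-KO hearts (1 and 1, beside 6.47% and 10.6%). *Slc27a1* was also the single member under 0.05, and lower, by surgery over both genotypes (6.52% of all genes) and by genotype over both operations (4.74%). No member was under it by genotype after sham (6.02% in either direction), by surgery in WT hearts (6.28%) or in the interaction (4.48%). Groups did not overlap for 1 member by genotype after TAC (11.4% of all genes), for 2 by genotype after sham (13.7%), and for 0 by surgery in WT (9.10%) or in F3-KO hearts (22.9%). DESeq2 called *Slc27a1* and no other member by genotype after TAC (0.717% of all genes called), by surgery in F3-KO hearts (3.15%) and by genotype over both operations (1.54%), and 0 members by genotype after sham (0.746%), by surgery in WT hearts (0.192%), by surgery over both genotypes (4.66%) or in the interaction (0.0426%). With limma-trend the count was 0 in all 7.

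**Figure D1:**
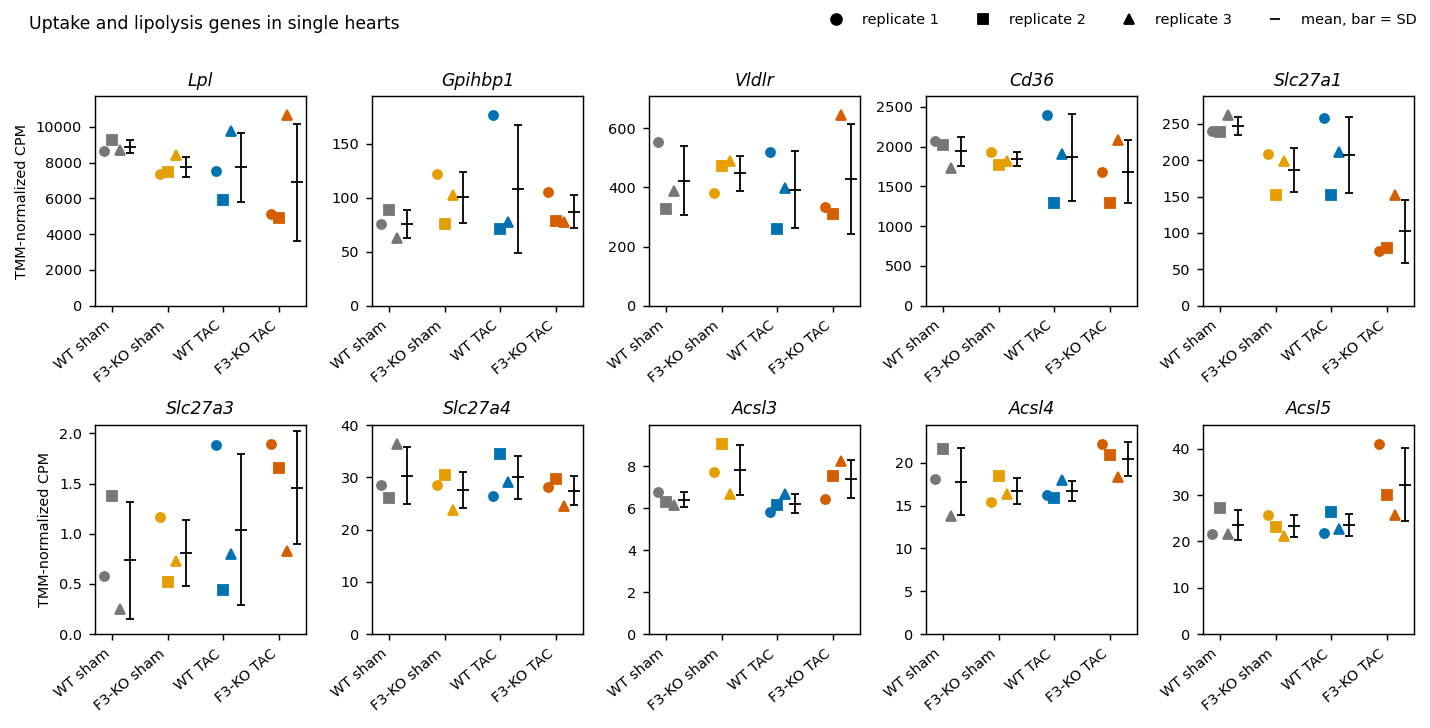
TMM-normalized CPM (vertical axes, from 0) of the 10 genes in each heart, by group, with marker shapes for replicates and the group mean with its SD (n = 3) in black. *Slc27a1* in F3-KO TAC hearts lies at 74.8 to 153 CPM, and *Lpl* in that group spans 4916 to 10637 CPM.

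The genes of lipolysis at the capillary wall came first. *Lpl*, the lipase itself, stood at 8627, 9287 and 8703 CPM in the WT sham hearts and at 7369, 7453 and 8402 CPM in the F3-KO sham hearts. After TAC it read 7543, 5902 and 9744 CPM in WT and 5112, 4916 and 10637 CPM in F3-KO hearts. The 3 F3-KO sham hearts were all below the 3 WT sham hearts, and the F3-KO TAC group held both the lowest and the highest of the 12 values. The log2 fold change of F3-KO over WT was -0.20 after sham (95% confidence interval -0.82 to 0.43, edgeR adjusted p = 0.998) and -0.17 after TAC (-0.79 to 0.46, adjusted p = 0.859). The TAC value moved with single hearts. It was farther below 0 without F3-KO TAC replicate 3, the highest heart, at -0.63 (adjusted p = 0.154). It turned to 0.034, 0.0038 and 0.020 without WT TAC replicate 3, F3-KO TAC replicate 1 and F3-KO TAC replicate 2. Over both genotypes TAC and sham differed by -0.18 (-0.62 to 0.26, adjusted p = 0.667), and by -0.41 without F3-KO TAC replicate 3 (adjusted p = 0.0974).

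*Gpihbp1*, the endothelial carrier and anchor of the lipase, was measured at 75.2, 88.5 and 62.6 CPM in WT sham, at 122, 75.6 and 103 CPM in F3-KO sham, at 176, 70.8 and 77.4 CPM in WT TAC and at 105, 78.5 and 77.7 CPM in F3-KO TAC hearts. WT TAC replicate 1 was the highest heart, and all groups overlapped. That heart had a high endothelial marker sum, 1327 CPM against 950 and 738 CPM in the other WT TAC hearts (8 of 8 markers detected in each heart, and 864 to 1440 CPM in the sham and F3-KO TAC hearts other than F3-KO TAC replicate 3, at 780 CPM), whose part in the result was not tested. TAC against sham in WT hearts gave a log2 fold change of 0.52 (-0.16 to 1.20, adjusted p = 0.809), which was -0.025 without that heart. The genotype difference after TAC, -0.31 (-0.99 to 0.36, adjusted p = 0.732), turned to 0.23 without it. After sham it was 0.41 (-0.27 to 1.09, adjusted p = 0.998), and the interaction was -0.72 (-1.69 to 0.24, adjusted p = 0.954), and was -0.18 without WT TAC replicate 1.

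*Vldlr*, which codes for the receptor of very low density lipoproteins, gave 554, 328 and 387 CPM in WT sham and 381, 474 and 491 CPM in F3-KO sham hearts, then 519, 260 and 397 CPM in WT TAC and 334, 311 and 644 CPM in F3-KO TAC hearts. F3-KO TAC replicate 3 was again the highest of the 12. The genotype difference after TAC, 0.13 on the log2 scale (-0.56 to 0.82, adjusted p = 0.903), became -0.28 without that heart.

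*Angptl4*, a secreted inhibitor of lipoprotein lipase, was read beside them. WT sham hearts held 8.16, 4.03 and 4.17 CPM and F3-KO sham hearts 27.5, 17.3 and 23.9 CPM, and these groups did not overlap, as for 13.7% of all tested genes. After TAC the values were 43.0, 8.19 and 2.0 CPM in WT and 50.5, 47.7 and 20.2 CPM in F3-KO hearts, which overlapped through WT TAC replicate 1. Neither the sham difference of 2.08 (0.35 to 3.80, unadjusted p = 0.0222, adjusted p = 0.704 by edgeR) nor the difference of 1.61 over both operations (adjusted p = 0.313) passed the threshold. A fit of the sham libraries alone called the former (2.07, adjusted p = 0.0227), and leaving out WT TAC replicate 1 the latter (2.505, adjusted p = 0.0189).

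Among the uptake genes, *Cd36*, the main fatty acid translocase of the heart, had means of 1938 ± 185 CPM (SD, n = 3) for WT and 1840 ± 86.3 CPM for F3-KO hearts after sham, and of 1863 ± 550.2 CPM for WT and 1685 ± 398 CPM for F3-KO hearts after TAC. The single hearts read 2064, 2024 and 1726 CPM in WT sham, 1936, 1769 and 1816 CPM in F3-KO sham, 2392, 1293 and 1903 CPM in WT TAC and 1676, 1291 and 2087 CPM in F3-KO TAC hearts. All groups overlapped, with a wider range after TAC than after sham. Genotype differences were -0.07 after sham (-0.57 to 0.42, adjusted p = 0.998) and -0.14 after TAC (-0.64 to 0.35, adjusted p = 0.844), and the TAC difference over both genotypes was -0.09 (-0.45 to 0.26, adjusted p = 0.800). These values moved with single hearts. The genotype difference after TAC was -0.35 without WT TAC replicate 2, -0.33 without F3-KO TAC replicate 3, 0.075 when WT TAC replicate 1 was left out and 0.0057 when F3-KO TAC replicate 2 was. The TAC difference was -0.20 without WT TAC replicate 1, -0.19 without F3-KO TAC replicate 3 and 0.0090 when WT TAC replicate 2 was left out, and the sham difference ran from -0.15 to -0.027 with a WT sham heart left out.

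*Slc27a1* encodes FATP1, a fatty acid transport protein of muscle, heart and fat with acyl-CoA synthetase activity, and was the gene with the lowest F3-KO to WT ratio of the set. The WT sham hearts read 241, 239 and 262 CPM and the F3-KO sham hearts 209, 153 and 199 CPM. In TAC hearts it read 257, 153 and 211 CPM in WT and 74.8, 79.8 and 153 CPM in F3-KO. The sham groups did not overlap, F3-KO TAC replicates 1 and 2 lay below all other hearts, and F3-KO TAC replicate 3 met the lowest WT TAC heart at 153 CPM. F3-KO over WT after TAC was -1.02 on the log2 scale (-1.60 to -0.43, fold 0.495, unadjusted p = 0.00252), and the edgeR adjusted p of 0.365 missed the threshold. By DESeq2 the same difference had an adjusted p of 0.0294. Without F3-KO TAC replicate 3 the edgeR estimate was -1.42 (adjusted p = 0.0218, in a fit that called 0.718% of genes).

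The remaining comparisons of *Slc27a1* lay on the same side of 0. Genotype after sham gave -0.40 (-0.98 to 0.17, adjusted p = 0.998). TAC against sham gave -0.26 in WT (-0.83 to 0.32, adjusted p = 0.890) and -0.87 in F3-KO hearts (-1.45 to -0.29, unadjusted p = 0.00686, adjusted p = 0.182). Averaged over the other factor, genotype gave -0.71 (-1.12 to -0.30, adjusted p = 0.209) and surgery -0.56 (-0.97 to -0.15, adjusted p = 0.168). Without F3-KO TAC replicate 3, edgeR called surgery in F3-KO hearts (-1.28, adjusted p = 0.0181, 5.43% of all genes called), surgery over both genotypes (-0.77, adjusted p = 0.0199, 5.92%) and genotype over both operations (-0.91, adjusted p = 0.0135, 0.872%). In that fit genotype after sham called 0.139% of genes and no member. The genotype effects after TAC and after sham were not shown to differ (interaction -0.61, -1.43 to 0.20, adjusted p = 0.954, and -1.02, adjusted p = 0.402, without that heart).

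The 2 hearts lowest in *Slc27a1*, F3-KO TAC replicates 1 and 2, had the 2 highest fibroblast marker sums of the series, 3825 and 6559 CPM, and the remaining F3-KO TAC heart had 1413 CPM. WT TAC replicate 1 had the next highest sum, 2953 CPM, but held 257 CPM of *Slc27a1*, among the higher values. Cardiomyocyte markers (8 of 8 detected) summed to 69520, 57250 and 59720 CPM in F3-KO TAC against 66560 to 94870 CPM in WT TAC, 63440 to 83580 CPM in WT sham and 81640 to 90140 CPM in F3-KO sham hearts. By genotype after TAC, 6 of the 8 had log2 fold changes below 0 (median -0.392, beside 0.0221 over all genes). By surgery in F3-KO hearts it was 7 of 8 (median -0.435, beside 0.0222). EdgeR called 0 of the 8 in either comparison, beside 0.0780% and 0% of all genes. At an unadjusted p under 0.05, 2 of the 8 were lower and 0 higher in each, beside 4.16% and 6.47% of all genes lower. The part of either cell type in the result was not tested. Estimated counts of *Slc27a1* were not whole numbers in any heart, as can happen where reads are divided among similar genes. The source of the fractions was not tested, so its level is uncertain.

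**Figure D2:**
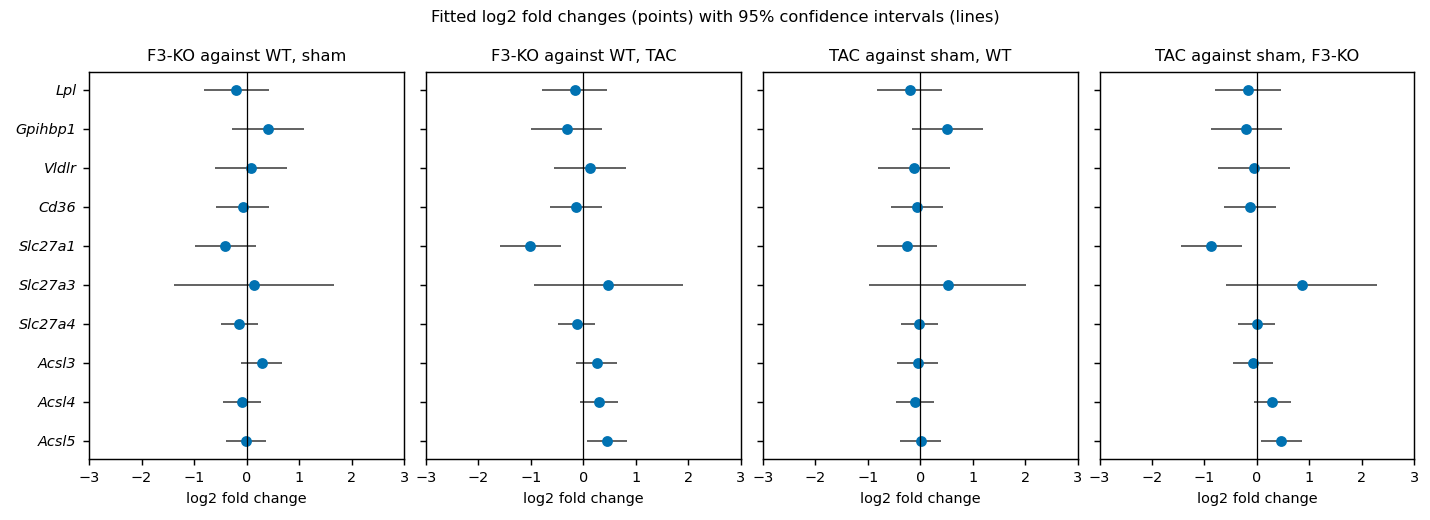
Log2 fold changes (horizontal axes) of the 10 genes by edgeR in 4 comparisons, with points for the estimates and lines for 95% confidence intervals. For genotype after TAC and surgery in F3-KO hearts the intervals of *Slc27a1* (-1.60 to -0.43 and -1.45 to -0.29) and *Acsl5* (0.07 to 0.83 and 0.08 to 0.85) lie off 0, and the other intervals cross it.

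Promoter windows of 250 bases before to 50 after a start site were taken from RefSeq (GRCm38.p6), which held 11 windows for 8 of the 10 genes. *Lpl* and *Gpihbp1* had no entry. The 3 windows of *Slc27a1* are shown because it is the member with the largest difference, and that of *Cd36* because it alone among the 11 held the letters AGGTCA, the core of the elements bound by PPAR and its partner RXR. Capitals mark AGGTCA, the E-box CACGTG and the GC box GGGCGG on either strand.
Slc27a1 upstream window, chr8:71568621-71568920, plus strand: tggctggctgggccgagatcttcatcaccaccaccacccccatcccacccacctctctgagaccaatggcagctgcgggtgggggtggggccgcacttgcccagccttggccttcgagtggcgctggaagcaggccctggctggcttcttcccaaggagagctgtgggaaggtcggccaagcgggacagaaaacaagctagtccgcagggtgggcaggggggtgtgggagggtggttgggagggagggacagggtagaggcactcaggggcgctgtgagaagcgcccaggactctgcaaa
Slc27a1 middle window, chr8:71569347-71569646, plus strand: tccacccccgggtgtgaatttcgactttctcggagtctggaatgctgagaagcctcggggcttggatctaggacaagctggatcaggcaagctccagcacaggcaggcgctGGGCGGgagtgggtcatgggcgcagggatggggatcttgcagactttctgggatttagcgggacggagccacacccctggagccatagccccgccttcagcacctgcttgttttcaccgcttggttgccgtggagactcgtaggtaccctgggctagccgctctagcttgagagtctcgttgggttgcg
Slc27a1 downstream window, chr8:71570344-71570643, plus strand: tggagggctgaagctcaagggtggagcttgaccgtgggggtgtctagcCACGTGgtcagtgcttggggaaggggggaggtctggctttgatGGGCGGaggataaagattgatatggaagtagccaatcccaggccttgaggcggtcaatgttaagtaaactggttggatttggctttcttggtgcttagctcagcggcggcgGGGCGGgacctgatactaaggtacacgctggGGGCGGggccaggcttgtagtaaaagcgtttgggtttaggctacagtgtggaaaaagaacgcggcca
Cd36, chr5:17835847-17836146, minus strand: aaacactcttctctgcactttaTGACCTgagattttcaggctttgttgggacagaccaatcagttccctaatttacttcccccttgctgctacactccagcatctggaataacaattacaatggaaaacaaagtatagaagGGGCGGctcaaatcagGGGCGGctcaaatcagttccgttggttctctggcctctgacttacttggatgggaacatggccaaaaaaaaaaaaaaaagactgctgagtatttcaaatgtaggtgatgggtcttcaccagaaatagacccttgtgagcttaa
AGGTCA was read on the opposite strand at position -228 of *Cd36*, and 16.3% of 32851 promoter windows of the same length hold it. The direct repeat of such cores with 1 base between them (DR1), whose search allowed any base in the middle of each core and which can contain AGGTCA, was in none of the 11 windows and is in 0.381% of all windows. The downstream window of *Slc27a1* held an E-box at -202 (7.15% of all windows hold one) and GC boxes at -159, -48 and -17, and the middle window a GC box at -139 (35.7% of all windows hold one). These are matches of letters in short windows, and no binding was measured.

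*Slc27a3* and *Slc27a4* encode FATP3 and FATP4, members of the same family with acyl-CoA synthetase activity. *Slc27a4* ran from 23.6 to 36.4 CPM over the 12 hearts, with 28.5, 26.1 and 36.4 CPM in WT sham, 28.5, 30.4 and 23.6 CPM in F3-KO sham, 26.4, 34.5 and 29.0 CPM in WT TAC and 28.2, 29.7 and 24.4 CPM in F3-KO TAC hearts. All groups overlapped. Its genotype difference was -0.13 on the log2 scale both after TAC (-0.48 to 0.22, adjusted p = 0.792, and -0.05 without F3-KO TAC replicate 3) and over both operations (-0.38 to 0.12, adjusted p = 0.717). *Slc27a3* was near the limit of detection, where 3 counts in a library equal 0.209 to 0.288 CPM. It read 0.583, 1.37 and 0.245 CPM in WT sham, 1.16, 0.519 and 0.733 CPM in F3-KO sham, 1.88, 0.440 and 0.800 CPM in WT TAC and 1.90, 1.66 and 0.825 CPM in F3-KO TAC hearts, from 2.71 to 25.8 estimated counts that were not whole in any heart. The TAC difference over both genotypes, 0.69 (-0.35 to 1.73, adjusted p = 0.476), has an interval that spans a decrease and a larger increase.

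Per kb of longest coding transcript, *Acsl3*, *Acsl4* and *Acsl5* had means of 1.765, 3.40 and 6.05 CPM, against 266 CPM for *Acsl1*. *Acsl5*, an isoform of mitochondria and endoplasmic reticulum best known from intestine and liver, had 21.7, 27.2 and 21.6 CPM in WT sham, 25.8, 23.2 and 21.1 CPM in F3-KO sham, 21.8, 26.3 and 22.7 CPM in WT TAC and 41.1, 30.05 and 25.7 CPM in F3-KO TAC hearts. Of the F3-KO TAC hearts, 2 lay above all others of the series and 1 among them. F3-KO over WT after TAC was 0.45 (0.07 to 0.83, unadjusted p = 0.0254, adjusted p = 0.474), TAC over sham in F3-KO hearts 0.47 (0.08 to 0.85, unadjusted p = 0.0215, adjusted p = 0.221), and the interaction 0.46 (-0.09 to 1.00, adjusted p = 0.954). Without F3-KO TAC replicate 1 the first 2 of these were 0.23 and 0.25. The order of the 3 F3-KO TAC hearts was also that of their macrophage marker sums (977, 784 and 591 CPM, 7 of 7 detected, against 478 to 768 CPM in WT TAC and 280 to 590 CPM in sham hearts). It was that of their endothelial marker sums too (1440, 1174 and 780 CPM, against 738 to 1327 CPM in WT TAC and 864 to 1209 CPM in sham hearts). In the WT TAC group, replicate 1 had the highest of both sums (768 and 1327 CPM) and the least *Acsl5* (21.8 CPM). The part of these cell types was not tested. Hepatocyte markers summed to 1.98 CPM in the heart with the most *Acsl5*, and to 105 and 151 CPM in replicates 2 and 3 of that group, against 3.01 to 15.2 CPM in the other groups. Their part in the *Acsl5* values was not tested either.

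*Acsl4*, which prefers arachidonic acid, was the member whose TAC groups did not overlap (11.4% of all tested genes did not). It read 22.2, 20.9 and 18.3 CPM in F3-KO TAC against 16.2, 15.9 and 18.0 CPM in WT TAC hearts, and 18.1, 21.6 and 13.7 CPM in WT sham and 15.5, 18.4 and 16.3 CPM in F3-KO sham hearts. The gap between the nearest TAC hearts was small, and WT sham replicate 2 and F3-KO sham replicate 2 lay within the F3-KO TAC range. The genotype difference after TAC was 0.30 (-0.06 to 0.65, adjusted p = 0.555) and the interaction 0.39 (-0.12 to 0.89, adjusted p = 0.954). *Acsl3*, an isoform of endoplasmic reticulum and lipid droplets, read 6.80, 6.32 and 6.14 CPM in WT sham, 7.73, 9.08 and 6.69 CPM in F3-KO sham, 5.81, 6.17 and 6.70 CPM in WT TAC and 6.45, 7.53 and 8.25 CPM in F3-KO TAC hearts. It was higher on average in F3-KO hearts by 0.29 after sham (-0.10 to 0.68, adjusted p = 0.998), 0.25 after TAC (-0.13 to 0.64, adjusted p = 0.625) and 0.27 over both (-0.003 to 0.54, unadjusted p = 0.0524, adjusted p = 0.496), with overlapping groups. *Lpl*, *Slc27a3* and *Acsl3*, like *Slc27a1* and *Fabp3*, had fractional counts in all 12 hearts and carry the same uncertainty.

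Levels of different genes can be compared only per length. In CPM per kb of the longest coding transcript (GENCODE M21), averaged over 12 hearts, *Lpl* stood first at 1897 ± 436 (SD), and *Cd36* second at 539 ± 93.3. Then came *Slc27a1* at 66.5 ± 22.9, *Gpihbp1* at 56.1 ± 18.9 and *Vldlr* at 53.1 ± 14.3, whose ranges overlapped from one to the next. *Slc27a1* was above *Gpihbp1* in 9 of 12 hearts, and *Gpihbp1* above *Vldlr* in 7 of 12. In F3-KO TAC replicates 1 and 2, *Slc27a1* at 26.7 and 28.6 lay below *Gpihbp1* at 63.4 and 47.5 and *Vldlr* at 41.8 and 39.1. It also lay below *Gpihbp1* in WT TAC replicate 1 (92.1 against 107). *Vldlr* was above it in F3-KO sham replicate 2 (59.5 against 54.6) and F3-KO TAC replicate 3 (80.7 against 54.6) as well. *Slc27a4* at 7.11 ± 0.922 and *Acsl5* at 6.05 ± 1.32 overlapped too, and *Acsl4* at 3.40 ± 0.494, *Acsl3* at 1.76 ± 0.248 and *Slc27a3* at 0.447 ± 0.254 were each below the gene before them in 12 of 12 hearts. By coding length *Vldlr* moved from rank 5 to 3 and *Slc27a1* from 3 to 5. On the per-kb scale *Acsl1*, the chief cardiac synthetase, held 92.1% to 96.4% of the summed level of *Acsl1*, *Acsl3*, *Acsl4*, *Acsl5* and *Acsl6* in each heart, and *Acsl5* 1.44% to 3.93%. *Slc27a1* made up 91.2% to 92.4% of the 3 SLC27 members in WT sham, 87.6% to 92.0% in F3-KO sham, 86.2% to 92.6% in WT TAC and 77.4% to 89.5% in F3-KO TAC hearts.

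**Figure D3:**
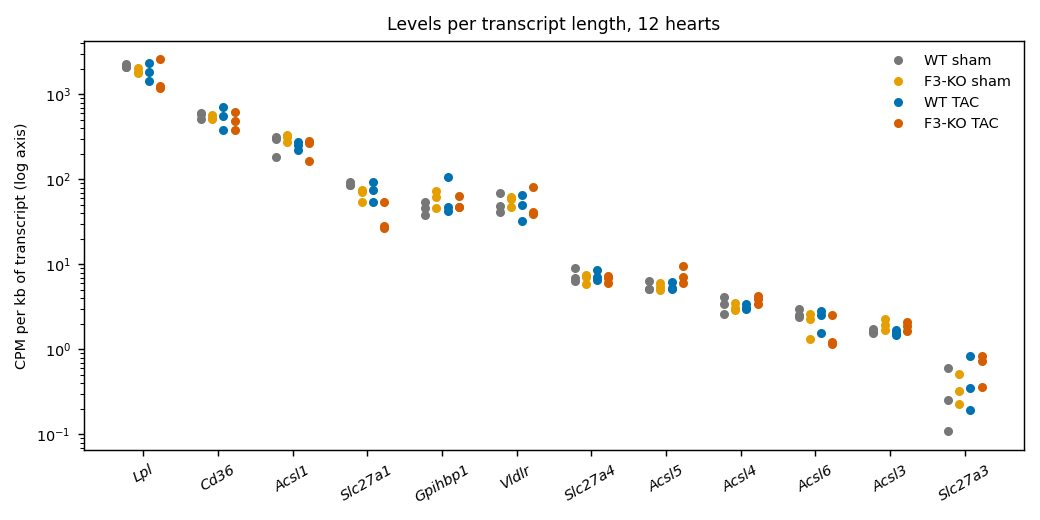
CPM per kb of longest coding transcript (log axis) for the 10 genes and for *Acsl1* and *Acsl6*, each point a heart, coloured by group. *Lpl* and *Cd36* lie above all other genes in each heart, and *Slc27a3*, at a mean of 0.447, lies lowest.

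Of 36 other genes of the pathway in 5 lists, 24 passed the filter and only *Fabp3* was called by edgeR. It was lower in F3-KO hearts after TAC (-1.49, adjusted p = 0.00146), after sham (-1.21, adjusted p = 0.00784) and over both (-1.35, adjusted p = 9.05e-05), and the sham call was lost when any of the 3 F3-KO sham hearts was left out. The call after TAC was lost in a fit of the TAC libraries alone, which called 0 genes in all. The median log2 fold change of the 24 was -0.04 by genotype after TAC and 0.10 after sham, beside 0.02 and -0.004 over all tested genes. The medians of the 10 members were 0.003 and -0.04. By surgery the medians were 0.08 for the 24 and -0.05 for the 10 in WT hearts and -0.11 and -0.07 in F3-KO hearts, beside 0 and 0.02 over all genes. *Acsl1* read 710 to 1217 CPM in WT sham, 1077 to 1298 CPM in F3-KO sham, 862 to 1078 CPM in WT TAC and 647 to 1112 CPM in F3-KO TAC hearts, with a genotype difference after TAC of -0.06 (-0.57 to 0.46, adjusted p = 0.952). *Fabp4*, the endothelial and adipocyte binding protein, read 464 to 704 CPM in WT sham and 713 to 1023 CPM in F3-KO sham hearts, which did not overlap, and 521 to 1277 CPM in WT TAC and 533 to 1016 CPM in F3-KO TAC hearts, which did. Its sham difference was 0.56 (-0.21 to 1.33, adjusted p = 0.998). The sham groups did not overlap for 13.7% of all tested genes. Among the 24, F3-KO sham hearts lay wholly higher for *Angptl4*, *Lipa*, *Fabp4* and *Pparg*, and wholly lower for *Sel1l*, *Fabp3* and *Meox2*. At an unadjusted p under 0.05 the 24 held, *Fabp3* included, 0 higher and 1 lower by genotype after TAC (5.84% and 4.16% of all genes), 2 higher and 1 lower by genotype after sham (6.02% in either direction), 3 higher and 1 lower by surgery in WT hearts (6.28% in either direction), 2 higher and 1 lower by surgery in F3-KO hearts (10.6% and 6.47%) and 0 in the interaction (4.48%). By surgery over both genotypes 4 were higher and 0 lower, and by genotype over both operations 2 and 1 (6.52% and 4.74% of all genes lower). The 2 higher by surgery in F3-KO hearts were the lipoprotein receptor genes *Lrp1* (0.77) and *Lrp8* (2.81), both at edgeR adjusted p = 0.175. *Lrp8* read 5.69, 11.9 and 1.32 CPM in F3-KO TAC hearts. Over both genotypes the 2 genes gave 0.62 and 2.08 (edgeR adjusted p = 0.104 and 0.108).

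**Figure D4:**
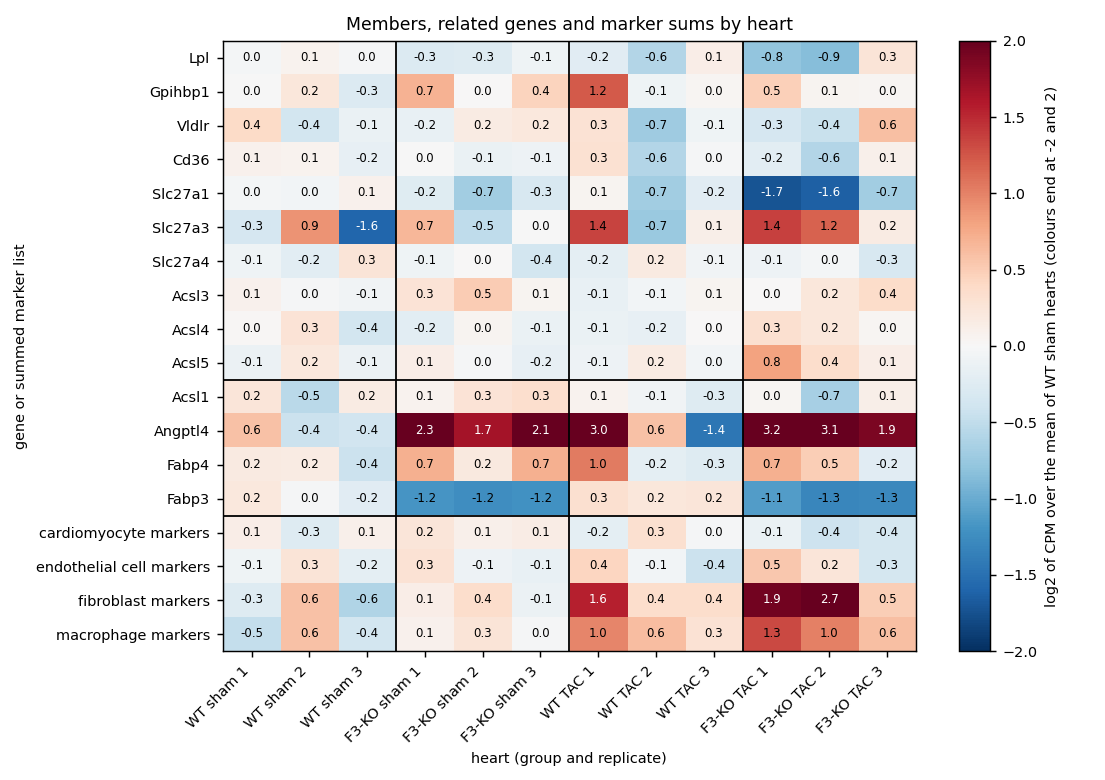
Log2 ratio of each heart (columns) to the mean of the WT sham hearts, for the 10 genes, 4 related genes and 4 summed marker lists (rows), printed in each cell, with colours ending at -2 and 2. F3-KO TAC replicates 1 and 2 stand at -1.73 and -1.63 for *Slc27a1* and at 1.93 and 2.71 for fibroblast markers, and replicate 3 at -0.70 and 0.49. WT TAC replicate 1 stands at 0.059 for *Slc27a1* and 1.56 for fibroblast markers.

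The patterns of 4 members over the 12 hearts were set against those of the other 14093 tested genes, and the 3 with the highest Pearson r of log2 CPM are named as a description, since the highest of so many is high by choice and the points share 4 groups. For *Lpl* these were *Acadsb* (r = 0.952, Spearman's rho 0.902), *Ogdhl* (0.951, rho 0.846) and *Cnot10* (0.940, rho 0.895), the first of which codes for an acyl-CoA dehydrogenase of branched short chains. *Cd36* was closest to *Timp4* (0.924, rho 0.895), *Ppip5k2* (0.911, rho 0.888) and *Rasef* (0.910, rho 0.874). *Gpihbp1* was closest to *Esam* (0.915, rho 0.839), an adhesion molecule of endothelial cells, *Coro2b* (0.885, rho 0.902) and *Tinagl1* (0.875, rho 0.811). For *Slc27a1* they were *Odf3b* (0.947, rho 0.867), *Nop53* (0.942, rho 0.811) and *Corin* (0.934, rho 0.951), of which *Corin* codes for the protease that processes natriuretic peptides in cardiomyocytes. *Rasef* and *Odf3b* were low, at means of 1.11 and 0.652 CPM. With the 2 hearts farthest from the member's median left out, the 12 values of r ran from 0.713 (*Tinagl1*) to 0.899 (*Esam*).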

How the data were processed

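RNA of 12 mouse hearts was analysed from a table of estimated counts per gene that the authors deposited, with no normalization. Per the study's methods, SOAPnuke filtered the reads, HISAT2 2.0.4 and STAR 2.3.0 mapped them, and DESeq2 tested for differences. The submitters' processing notes name the builds mm8 and mm9. The counting tool is not given in the sources used here. Of the values 40.6% were not whole numbers. Tests planned for whole counts were run on rounded values, on which sharing of reads between similar genes could act.

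Genes passing filterByExpr (minimum count 10) were scaled with TMM factors (0.931 to 1.09) and fitted with the quasi-likelihood model of edgeR 4.0.16 (R 4.3.3) on 4 groups, with 7 contrasts and Benjamini-Hochberg adjustment over 14094 genes. Intervals are 95%. Patterns were compared on log2 CPM with a prior count of 2. DESeq2 1.42.0, limma 3.58.1, other filters and scaling, a replicate block and leaving out each heart were alternatives. The scripts were checked on simulated data.

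Named were all 10 members, *Fabp3*, *Acsl1*, *Angptl4*, *Fabp4*, pathway genes called in any contrast, and the 3 genes most alike for 4 members. Members and lists were proposed with earlier results of these data known, although the members are found by symbol alone.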

Additional observations from a re-analysis of the deposited data

How the results depend on the processing

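Of 451 member fold changes under other tools, scalings, filters or models, 3 changed sign, and of 840 with a heart left out, 76 did. The largest of these was 0.52 on the log2 scale with all hearts. An unadjusted threshold counted 2 members by genotype after TAC, 2 by surgery in F3-KO hearts, 1 by surgery and 1 by genotype over the whole design. DESeq2 counted 1, 1, 0 and 1. Leaving out a heart gave 0 to 1 member in each of these 4 comparisons, the 1 being *Slc27a1* without F3-KO TAC replicate 3. The cause was not tested. Of the 76, 10 belong to fold changes given in the sentences above, genotype after TAC for *Lpl* (-0.63 to 0.034), *Gpihbp1* (-0.55 to 0.23), *Vldlr* (-0.28 to 0.39) and *Cd36* (-0.35 to 0.075), surgery in WT hearts for *Gpihbp1* (-0.025 to 0.75) and surgery over both genotypes for *Cd36* (-0.20 to 0.0090).

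Pathway genes called numbered 0 by genotype after TAC (*Fabp3* was lost) and 2 after sham (*Fabp3* and *Angptl4*) in fits of the compared libraries alone, which have fewer samples. With DESeq2 they numbered 2 by surgery in F3-KO hearts and 2 over both genotypes (*Lrp1* and *Lrp8* in each, beside 3.15% and 4.66% of all genes). With a heart left out the numbers ranged from 0 to 1 by genotype after sham, 0 to 1 by surgery in F3-KO hearts, 0 to 2 by surgery over both genotypes and 1 to 2 by genotype over both operations. By coding length *Slc27a1* ranked 5 and *Vldlr* 3.

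Over all genes, DESeq2 called 101, 105 and 217 by genotype after TAC, after sham and over both, against 11, 15 and 58 by edgeR, and 27, 443 and 656 by surgery in WT, in F3-KO and over both, against 0, 0 and 11. Its interaction had 6 calls against 0. Fits of the compared libraries alone called 0 by genotype after TAC and 56 after sham. With no filter the counts were 17 by genotype after TAC and 23 by surgery over both genotypes, the latter 36 with at least 10 counts in every library, and limma-trend called 25 by genotype after sham. Without F3-KO TAC replicate 3 edgeR called 103 by genotype after TAC, 778 by surgery in F3-KO hearts and 849 over both genotypes.

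Replicate numbers pair nothing in the labels. Same-numbered hearts of different groups deviated together with r of -0.141 to 0.362, over 0.1 in 4 of 12 pairs. A replicate block called 0 members in all 7 comparisons, with 8 genes by genotype after TAC and 8 after sham against 11 and 15.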
